A study of Mus musculus with 26 samples.

Results

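Oligodendrocyte precursors are the dividing glial cells of the adult brain that give rise to myelinating oligodendrocytes, and 7 genes by which they are commonly recognised were followed here: Pdgfra, Cspg4, Gpr17, Olig1, Olig2, Sox10 and C1ql1. The genes were taken by symbol from the count tables, and all 7 of 7 symbols occurred among the 31735 genes that the tables of all 26 libraries share. The tissue was the accumbens nucleus, part of the ventral striatum and of the brain's reward system. The adult mice were of the line Drd2-TRAP CP101, on an FVB/N-Swiss Webster background crossed for at least 9 generations to C57BL/6, and all had gone through long-access intravenous self-administration of saline or cocaine. In these mice ribosomal protein L10a carries EGFP in cells that use the Drd2 promoter, which in the accumbens are mainly projection neurons with dopamine D2 receptors. Tagged polysomes were pulled down with antibodies against EGFP, and 2 libraries were made from total RNA before the pull-down (inputs). Oligodendrocyte precursors are not the cells the tag is meant to mark.

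Of the 24 pull-down libraries, 3 came from animals that took saline, 5 from animals that took cocaine without raising their intake (nonescalating), 2 from animals that raised it (escalating), 6 from saline animals after withdrawal and 8 from nonescalating animals after withdrawal; the length of withdrawal is not given in the sources used here. The inputs were 1 saline and 1 nonescalating library. The library numbers fall in 2 runs, 1806 to 1825 (set 1, which holds both inputs) and 1836 to 1843 (set 2), and only the withdrawal groups occur in both: 3 saline and 3 nonescalating libraries in set 1, 3 and 5 in set 2. Titles set the groups. For the 5 nonescalating libraries without withdrawal a second label names withdrawal, so each contrast that uses them rests on the title alone. The labels do not say whether libraries of 1 group came from separate animals, so the p-values rest on the spread among libraries, which may be technical. In 6 pairs of withdrawal libraries the title gives the same group and replicate number in both sets. Whether such a pair comes from the same sample is not stated, and the fits counted each library separately.

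PDGFRA is the receptor through which platelet-derived growth factor A keeps precursors dividing. CSPG4, also called NG2, is a membrane proteoglycan of precursors and equally of pericytes and smooth muscle around blood vessels. GPR17 is a receptor that marks precursors as they commit to differentiate. OLIG1 and OLIG2 are basic helix-loop-helix transcription factors and SOX10 is an HMG-box factor. The 3 factors are needed along the oligodendrocyte lineage and stay on in mature oligodendrocytes. C1QL1 is a secreted C1q-like protein that binds the adhesion receptor ADGRB3. PDGFRA is also made by perivascular fibroblasts, so no single member marks precursors alone.

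In the mouse build GRCm38 (GENCODE M21), Pdgfra lies on chromosome 5 from 75152292 to 75198215 on the plus strand, with 10.024 kb of exon sequence. Cspg4 lies on chromosome 9 from 56865033 to 56899870 on the plus strand and has 11.931 kb of exons. Olig2 (chromosome 16, 91225457 to 91228677, plus strand, 2.53 kb) and Olig1 (chromosome 16, 91269772 to 91271933, plus strand, 2.162 kb) are neighbours, with 41.1 kb between the end of Olig2 and the start of Olig1. Sox10 lies on chromosome 15 from 79154908 to 79165240 on the minus strand (3.051 kb), and C1ql1 on chromosome 11 from 102939264 to 102946688 on the minus strand (1.473 kb). Sequences around the start site are shown for Pdgfra, Cspg4 and Olig2, from the promoter table used. Cspg4 lay above and Olig2 below the inputs in the 8 pull-downs first compared. Each runs from 250 bases before to 50 bases after the start in RefSeq (GRCm38.p6), 5′ to 3′ on the gene's strand, and capitals mark E-boxes (CANNTG, the motif that OLIG factors bind, which reads alike on both strands). The windows are chr5:75152001-75152300 (plus strand), chr9:56864854-56865153 (plus strand) and chr16:91225300-91225599 (plus strand).
Pdgfra: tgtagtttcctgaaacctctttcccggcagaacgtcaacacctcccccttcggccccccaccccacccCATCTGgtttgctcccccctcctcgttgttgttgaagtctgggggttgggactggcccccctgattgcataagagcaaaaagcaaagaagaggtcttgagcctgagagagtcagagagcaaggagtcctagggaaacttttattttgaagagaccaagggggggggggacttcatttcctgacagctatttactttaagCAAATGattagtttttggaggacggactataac
Cspg4: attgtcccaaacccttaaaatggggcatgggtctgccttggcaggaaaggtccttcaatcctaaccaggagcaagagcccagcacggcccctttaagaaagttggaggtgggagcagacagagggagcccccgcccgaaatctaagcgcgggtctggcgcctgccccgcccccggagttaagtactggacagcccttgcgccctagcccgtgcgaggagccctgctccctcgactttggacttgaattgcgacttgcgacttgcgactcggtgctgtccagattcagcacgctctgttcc
Olig2: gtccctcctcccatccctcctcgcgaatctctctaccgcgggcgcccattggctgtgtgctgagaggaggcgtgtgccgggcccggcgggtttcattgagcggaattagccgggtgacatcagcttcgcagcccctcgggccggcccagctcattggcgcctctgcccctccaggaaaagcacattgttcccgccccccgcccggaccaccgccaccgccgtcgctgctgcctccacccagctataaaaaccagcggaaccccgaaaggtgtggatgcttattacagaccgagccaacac
The Pdgfra window held 2 E-boxes, and those of Cspg4 and Olig2 held 0. Of 32851 windows of this length in the same table, 72.3% held at least 1 E-box. None of the 3 windows held ACAAAG or its reverse complement CTTTGT, a core of SOX factor motifs that was found in 18.7% of all windows. GC content was 51.0% at Pdgfra, 60.0% at Cspg4 and 65.0% at Olig2, against a median of 52.7% over all windows. A motif match is a description of the letters and says nothing about binding.

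The values are raw read counts per gene, given below as CPM (counts per M gene counts, where M stands for 1000000) scaled with edgeR's TMM factors. Gene counts per library came to 1.54 to 17.5 M in the pull-downs (median 5.70 M in set 1, 2.69 M in set 2) and to 4.70 and 37.5 M in the inputs, so that 3 reads correspond to 0.173 to 1.96 CPM before TMM scaling in a pull-down. Drd2, the check of the tagged cells, was at 1825 ± 821 CPM (SD, n = 8) in the saline and nonescalating pull-downs without withdrawal and at 335 ± 79.6 CPM (SD, n = 2) in the inputs. Of the pull-downs, 1 went against its label: in library 1813, replicate 4 of the nonescalating group, Drd2 stood at 243 CPM against 279 and 391 CPM in the inputs and 881 to 3102 CPM in the other 23 pull-downs. RNA of other cells was present in the pull-downs: 12 pericyte and mural genes summed to 153 to 5822 CPM over the 24 libraries and to 158 and 203 CPM in the inputs, and 15 myelin genes summed to 240.5 to 3565 CPM and to 1921 and 5187 CPM. In these tissue samples fewer cells of a type and less RNA per cell cannot be told apart.

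Gpr17 lies on chromosome 18 from 31942997 to 31949636 on the minus strand of the same build, with 5.195 kb of exon sequence. Read per length of exon sequence, the 7 members were not at one level in the tissue. In the saline input, Olig1 stood highest at 18.7 CPM per kb and Olig2 followed at 9.98 CPM per kb. Sox10 (4.14), Gpr17 (4.13) and Pdgfra (2.44 CPM per kb) came next, and Cspg4 (1.38) and C1ql1 (0.952 CPM per kb) were lowest. The nonescalating input had the 2 OLIG genes and Sox10 on top as well, but in another order: Olig1 at 49.8, Sox10 at 18.9 and Olig2 at 17.7 CPM per kb, with Cspg4 (3.51) and C1ql1 (3.46 CPM per kb) again lowest. All 7 members were higher in CPM in the nonescalating than in the saline input, with 1 library each and therefore no test.

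In the 16 pull-downs of set 1 the order was another: Cspg4 was highest at a mean of 11.8 CPM per kb, followed by Gpr17 (5.01), Sox10 (4.78) and Olig1 (4.14 CPM per kb). In the 8 of set 2 Sox10 (3.18) and Olig1 (2.97) stood above Cspg4 (2.16 CPM per kb). C1ql1 was lowest in both sets, at 1.45 and 0.786 CPM per kb. Cspg4 held 11.6% and 12.4% of the summed CPM of the 7 members in the inputs and 7.65% to 88.3% (median 57.0%) in the pull-downs. The sum over all 7 members spanned 24.1 to 330.4 CPM in the pull-downs and was 142 and 338 CPM in the inputs. Without Cspg4 the remaining 6 members summed to 16.8 to 185 CPM in the pull-downs (median 53.1) against 126 and 297 CPM in the inputs.

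**Figure D1:**
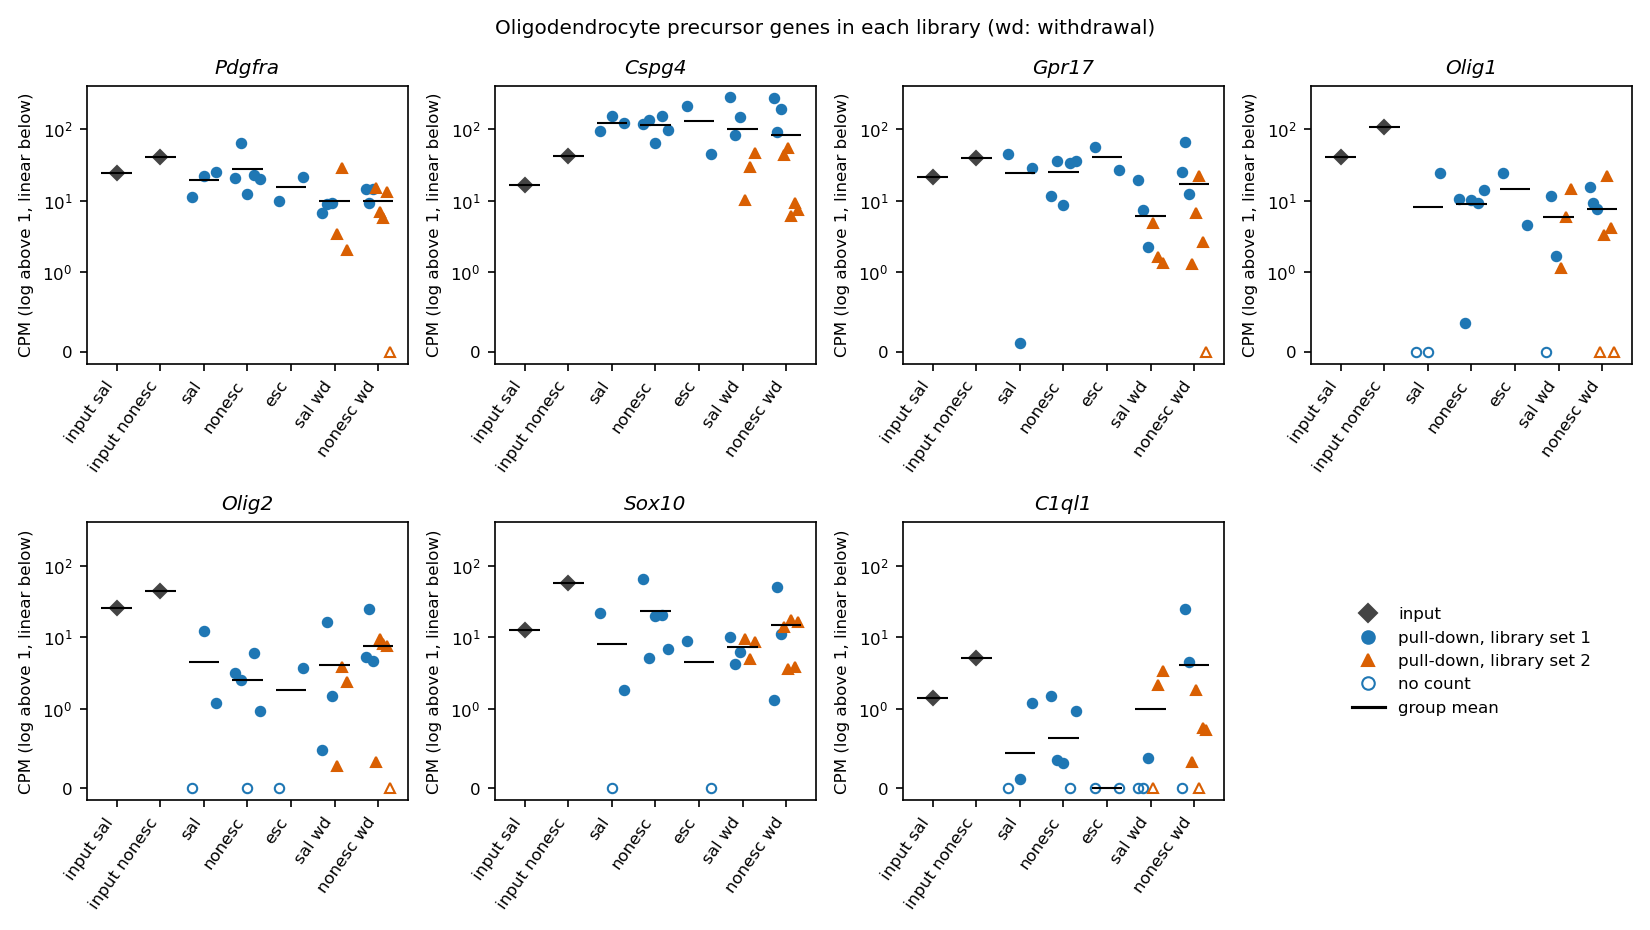
CPM of each of the 7 members in each of the 26 libraries (vertical axis logarithmic above 1 CPM and linear below), by group, with inputs as diamonds, set 1 pull-downs as circles, set 2 pull-downs as triangles, open symbols for no count and lines at group means. All 24 pull-downs lie below both inputs for Olig1 and Olig2, whereas 19 of 24 lie above both inputs for Cspg4. The share of all genes that lie in these ways is not given.

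The first comparison asked whether the members were richer or poorer in the pull-down than in the tissue, using the 8 saline and nonescalating pull-downs without withdrawal and the 2 inputs, all of set 1, with agent as a term. Cspg4 lay above both inputs in 8 of 8 pull-downs, Olig1 and Olig2 lay below both in 8 of 8, and Pdgfra, Gpr17, Sox10 and C1ql1 overlapped the inputs. The share of all genes that separate in this way is not given, here or in any comparison below. Such counts are therefore descriptions only. In edgeR's quasi-likelihood test 38 of 14929 genes (0.255%) had an adjusted p under 0.05, and all 38 were higher in the pull-down. Of the 7 members 6 passed the filter on low counts and 0 passed the test, with 3 at an unadjusted p under 0.05 against 1234 of all genes. DESeq2 called 1 member and 758 genes (713 higher in the pull-down), limma voom 4 members and 1090 genes (560 higher). The median log2 fold change was -0.72 over the 6 tested members and 0.07 over all genes. C1ql1 was left out by the filter, with at most 3 reads in 6 of the 8 pull-downs.

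Pdgfra was at 24.5 CPM in the saline and 41.3 CPM in the nonescalating input. The saline pull-downs had 11.4, 22.3 and 25.1 CPM, and the nonescalating pull-downs 12.3, 20.02, 20.8, 22.8 and 63.1 CPM. Of these 8 libraries 6 were below both inputs and 1, nonescalating replicate 2, was above both. The log2 fold change was -0.44 (SE 0.74, adjusted p = 0.998).

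Cspg4 was at 16.4 and 41.8 CPM in the inputs. The saline pull-downs had 94.7, 122 and 151 CPM and the nonescalating pull-downs 63.8, 95.7, 118, 135 and 151 CPM. The mean of the pull-downs was 116 ± 30.2 CPM (SD, n = 8), 3.99 times that of the inputs, and the ranges did not overlap. EdgeR put the log2 fold change at 2.03 with SE 0.57 and an unadjusted p of 0.00260, which did not pass adjustment over all genes (adjusted p = 0.154). DESeq2 gave 2.13 with an adjusted p of 0.00144 and limma voom 1.82 with an adjusted p of 0.0111.

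Gpr17 was at 21.4 and 39.9 CPM in the inputs. The 8 pull-downs ran from 0.12 CPM (1 read, saline replicate 3) to 44.8 CPM (saline replicate 1) with a median of 31.4 CPM, so the highest and the lowest value came from the same group. In edgeR it differed by -0.28 on the log2 scale (SE 1.08, adjusted p = 0.998).

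Olig1 was at 40.5 and 108 CPM in the inputs. Among the saline pull-downs 2 had no read and the third 24.2 CPM, and the nonescalating pull-downs had 0.36, 9.36, 10.3, 10.5 and 14.2 CPM. Every one of these 8 libraries was below the lower input, and the mean of 8.61 ± 8.43 CPM (SD, n = 8) was 0.116 times the input mean. Its log2 fold change in edgeR was -3.07 (SE 1.27, unadjusted p = 0.0278, adjusted p = 0.480). Limma voom gave -3.90 with an adjusted p of 0.0107.

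Olig2 was at 25.3 and 44.8 CPM in the inputs. The saline pull-downs had 0, 1.23 and 12.3 CPM and the nonescalating pull-downs 0, 0.98, 2.54, 3.17 and 5.99 CPM. The ranges again did not overlap, and the mean of 3.27 ± 4.14 CPM (SD, n = 8) was 0.0934 times that of the inputs. For Olig2 the edgeR value was -3.45 on the log2 scale (SE 1.31, unadjusted p = 0.0176, adjusted p = 0.402). Limma voom gave -4.61 with an adjusted p of 0.00159, and DESeq2 gave no p for Olig1 or Olig2.

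Sox10 was at 12.6 and 57.7 CPM in the inputs, the widest ratio between the inputs among the 7 members. The pull-downs ran from 0 (saline replicate 3) to 64.8 CPM (nonescalating replicate 1) with a median of 13.3 CPM. Of 8 libraries 4 were below both inputs and 1 was above both. Pull-down against input came to -0.99 on the log2 scale (SE 1.22, adjusted p = 0.989); limma voom gave -2.38 with an adjusted p of 0.0404.

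C1ql1 was at 1.40 CPM (7 reads) and 5.10 CPM (185 reads) in the inputs. The 8 pull-downs held 22 reads in all, and the highest level was 1.53 CPM. At this depth a difference from the saline input was not detectable.

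Without nonescalating replicate 4, the pull-down with low Drd2, Cspg4 was at 1.97 (adjusted p = 0.199), Olig1 at -3.06 and Olig2 at -3.81 on the log2 scale in edgeR, and 0 members passed. Leaving out libraries 1806 (saline replicate 1), 1813 (nonescalating replicate 4) and 1843, which had the lowest correlations with other pull-downs in an earlier analysis of these data, gave 1.99 for Cspg4, -2.89 for Olig1 and -3.68 for Olig2, and 0 members passed in edgeR. Each input is 1 library per agent, and without either of them 1 gene of all tested passed.

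Members were also set against Olig2 within each library, as the log2 ratio of the reads with 0.5 added to each. Olig2 had no read in 2 of the 8 pull-downs and 2, 4 and 7 reads in 3 others, where the size of the ratio rests on the added 0.5 and on depth. Olig2 itself lay below both inputs in all 8 of these pull-downs, so a ratio to it rises through its fall alone. By level in edgeR Olig2 differed by -3.45 and Pdgfra by -0.44 on the log2 scale. The ratios are therefore no separate evidence of a rise in another member. The log2 ratio of Cspg4 to Olig2 was -0.36 on average in the inputs and 6.28 in the 8 pull-downs, higher in 8 of 8, a difference of 6.64, or 6.31 with 1 added and 7.28 with 0.1 (exact permutation test, two-sided, p = 0.0222, adjusted over 6 members p = 0.133; 45 arrangements). Pdgfra to Olig2 was higher in 8 of 8 as well, by 3.99, or 3.68 with 1 added and 4.63 with 0.1 (exact permutation p = 0.0444, adjusted p = 0.133). Gpr17 and Sox10 to Olig2 were higher in 7 of 8 pull-downs and C1ql1 in 6 of 8, with exact permutation p-values of 0.333, 0.489 and 0.356. Olig1 to Olig2 was above both inputs in 4 of 8 pull-downs and differed by -0.22 (exact permutation p = 0.889). The smallest p this design allows is 0.0222, so no adjusted value could fall below 0.133 unless more members reached it.

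Other genes of the lineage and of neighbouring families were set beside the members. Over all genes 47.0% were below 0 in pull-down against input. Of 20 further precursor genes 17 were below 0 and 3 above (median log2 fold change -1.33), 0 passed in edgeR and 5 had an unadjusted p under 0.05, all lower. Ptprz1, a receptor phosphatase of precursors and astrocytes, was at 327 ± 109 CPM (SD, n = 2) in the inputs and 133 ± 81.5 CPM (SD, n = 8) in the pull-downs. Tnr, the matrix protein tenascin R, was at 132 ± 3.66 and 55.8 ± 31.3 CPM. Of 12 tested genes of newly formed oligodendrocytes 5 were above 0 and 7 below (median -0.12), with 0 passing. Myrf, the factor that switches on myelin genes, was at 95.9 ± 33.0 CPM in the inputs and 19.7 ± 13.3 CPM in the pull-downs. Of 15 myelin genes 14 were below 0 (median -2.51), 0 passed and 10 had an unadjusted p under 0.05.

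Of the other PDGF family genes 6 of 6 were above 0 (median 3.71), with 0 passing and 3 at an unadjusted p under 0.05; Pdgfa (log2 fold change 0.23, SE 0.78) and Pdgfc (0.19, SE 2.001) lay within 1 SE of 0, as Pdgfra did. Pdgfrb and Pdgfrl are also in the pericyte and fibroblast lists, and no difference from Pdgfra was tested. Pdgfa, the ligand of PDGFRA, was at 42.6 ± 10.4 CPM (SD, n = 2) in the inputs and 48.7 ± 28.9 CPM (SD, n = 8) in the pull-downs. Pdgfrb, the receptor of pericytes, was at 13.4 ± 8.02 and 192 ± 108 CPM, and Pdgfb, the ligand made by endothelial cells, at 10.7 ± 6.34 and 106 ± 75.4 CPM. Of 5 tested relatives or partners of the OLIG and SOX factors 4 were below 0 (median -1.43), and of 5 tested C1q-like and cerebellin genes with their receptor Adgrb3, 5 were below 0 (median -2.14); 0 passed in either list.

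Markers of blood vessel cells moved in the same direction as Cspg4. All 12 pericyte and mural genes were above 0 (median 4.27), 10 had an unadjusted p under 0.05 and 2, Rgs5 and Myh11, passed in edgeR. Their summed level was 818 to 5822 CPM in the 8 pull-downs and 158 and 203 CPM in the inputs, with 0 or 1 of the 12 genes at 0 in a pull-down. Rgs5, a regulator of G protein signalling abundant in pericytes, was at 1845 ± 1120 CPM (SD, n = 8) against 101 ± 16.5 CPM (SD, n = 2). All 9 endothelial genes were above 0 (median 4.06) with 1, Kdr, passing, and 7 of 7 tested perivascular fibroblast genes were above 0 (median 6.52) with 0 passing. Of 10 astrocyte genes 9 were below 0 (median -0.96). The part of vessel cells in the Cspg4 values was not tested.

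**Figure D2:**
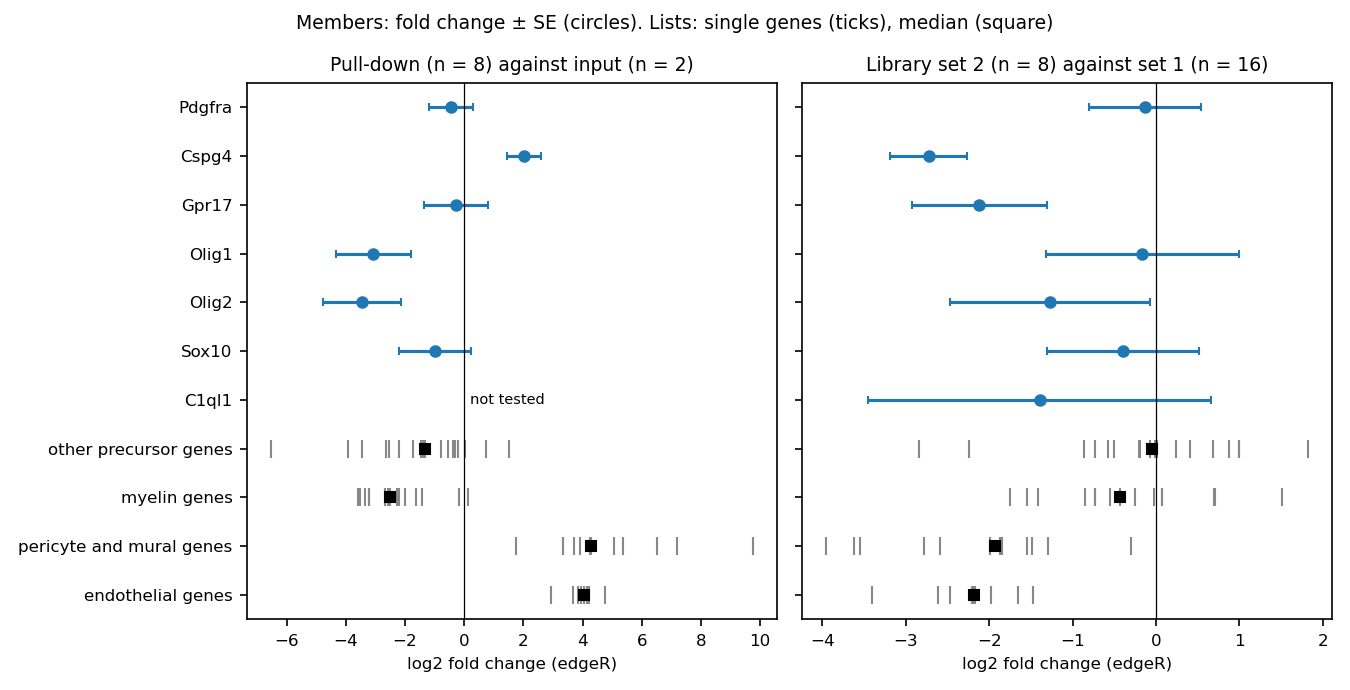
Log2 fold change with its standard error for each tested member (circles) and for single genes of 4 marker lists (ticks, with the median as a square), for pull-down against input on the left and library set 2 against set 1 on the right. Cspg4 is the member above 0 on the left (2.03) and the lowest on the right (-2.72), and the pericyte and endothelial lists lie on its side of 0 in both panels.

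The counts that follow cover all 24 pull-downs, including the 8 of this comparison, against the same 2 inputs. The added pull-downs are escalating or withdrawal libraries, 8 of them from set 2. Pull-down against input is therefore mixed with group and library set here. Over all 24, Olig1 was below both inputs in 24 of 24 and Olig2 in 24 of 24, with means of 0.109 and 0.137 times those of the inputs. Pdgfra was below both in 21 of 24, C1ql1 in 18, Sox10 in 16 and Gpr17 in 14. Cspg4 was above both inputs in 19 of 24 and below both in 4, and all 4 of these were from set 2. Without the share of all genes that lie below or above both inputs, these counts are descriptions only.

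The second comparison was between the library sets, through the withdrawal groups that both sets hold. Cspg4 passed the test and was lower in set 2; the other 6 members did not pass. Of 15854 genes 145 passed in edgeR (0.915%), 25 higher and 120 lower in set 2. All 7 members had a log2 fold change below 0, as did 54.1% of all genes. The members' median was -1.27 against -0.09 over all genes, and 4 of the 7 lay within 1 SE of 0.

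Cspg4 was at 82.5, 146 and 280.0 CPM in the saline withdrawal libraries of set 1 and at 91.0, 193 and 268 CPM in the nonescalating ones. In set 2 it was at 10.3, 30.1 and 45.9 CPM after saline and at 6.21, 7.31, 9.15, 43.3 and 54.3 CPM after nonescalating cocaine. All 8 libraries of set 2 were below all 6 of set 1, and their mean was 0.146 times as high. The log2 fold change was -2.72 (SE 0.46), and the adjusted p was 0.00157 in edgeR. Without libraries 1806, 1813 and 1843 it was -2.60 with an adjusted p of 0.00519.

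Gpr17 had the next lowest value at -2.12 on the log2 scale (SE 0.81, unadjusted p = 0.0131, adjusted p = 0.219). Its set 1 withdrawal libraries had 2.29, 7.48 and 19.7 CPM after saline and 12.2, 25.3 and 66.8 CPM after nonescalating cocaine. Its set 2 libraries had 1.37, 1.64 and 4.84 CPM and 0, 1.32, 2.67, 6.71 and 22.0 CPM. Of the 8 set 2 libraries 4 were below all of set 1, and the ranges overlapped.

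The other members overlapped widely between the sets. The log2 fold change was -0.13 for Pdgfra (SE 0.67, adjusted p = 0.965), -0.16 for Olig1 (SE 1.16, adjusted p = 0.975) and -0.40 for Sox10 (SE 0.92, adjusted p = 0.907). It was -1.27 for Olig2 (SE 1.20, adjusted p = 0.709) and -1.39 for C1ql1 (SE 2.06, adjusted p = 0.841). The value of Cspg4, -2.72, lies within 2 SE of the estimates for Olig2 and C1ql1.

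Vessel markers were lower in set 2 too. All 12 pericyte and mural genes were below 0 (median -1.93) with 2 passing, Rgs5 and Vtn, and all 9 endothelial genes were below 0 (median -2.18) with 5 passing (Kdr, Cdh5, Flt1, Esam and Ly6c1). The summed pericyte level was 1292 to 4722 CPM in the 6 withdrawal libraries of set 1 and 153 to 773 CPM in the 8 of set 2, without overlap. Rgs5 fell from 1712 ± 860 CPM (SD, n = 6) to 136 ± 82.6 CPM (SD, n = 8). Pdgfrb was at 204 ± 158 and 50.4 ± 44.0 CPM. The lists of the lineage itself were nearer 0: the 18 tested further precursor genes had a median of -0.05 (8 above 0, 10 below), the 15 myelin genes -0.44 and the 13 genes of newly formed oligodendrocytes -0.45, with 0 passing in each. The 6 genes of D2 neurons had 3 above and 3 below 0 (median -0.17), and Drd2 was at 2038 ± 781 CPM in set 1 and 2039 ± 562 CPM in set 2. Depth, the list of genes in the files and the library numbers differ between the sets as well, and these differences cannot be told apart from one another.

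Within a library set Cspg4 was compared with the mean log2 CPM of the 12 pericyte and mural genes, a relation looked at after the values were seen and 1 of 28 of its kind. Over the 16 pull-downs of set 1 Pearson's r was 0.64 (permutation p = 0.00791, adjusted over 28 relations p = 0.206) and Spearman's rho 0.61 (permutation p = 0.0150, adjusted p = 0.42), and r was 0.75 without the 2 libraries farthest from the median. Over the 8 pull-downs of set 2 r was 0.69 (exact permutation p = 0.0768, adjusted p = 0.358), rho was 0.52 (exact permutation p = 0.197, adjusted p = 0.488), and r fell to 0.35 without the 2 farthest libraries. With the 15 myelin genes r was -0.27 in set 1 (permutation p = 0.313, adjusted p = 0.685; rho -0.37, permutation p = 0.163, adjusted p = 0.488; r -0.60 without the 2 farthest). Cspg4 was not the only member with such values for the pericyte and mural genes. Gpr17 had r of 0.60 in set 1 (permutation p = 0.0147, adjusted p = 0.206) and 0.30 in set 2. Pdgfra had r of 0.71 (exact permutation p = 0.0412, adjusted p = 0.288) and rho of 0.76 in set 2, but rho of -0.01 in set 1. No relation passed adjustment.

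**Figure D3:**
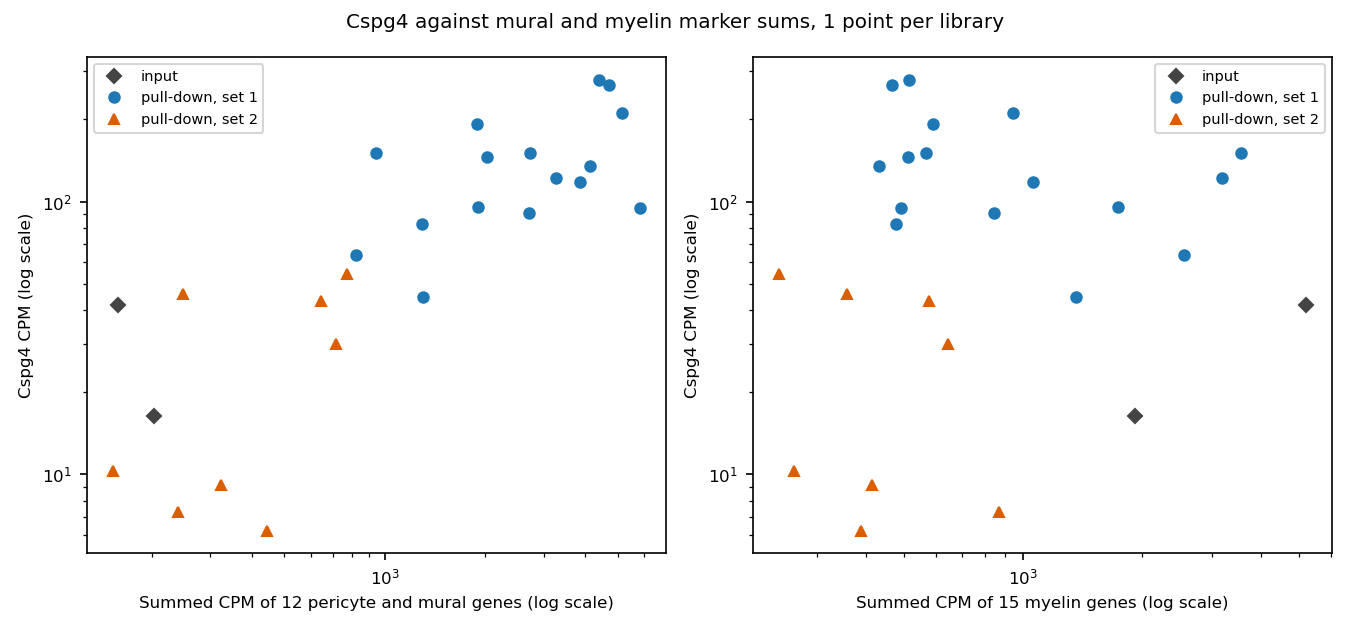
Cspg4 CPM against the summed CPM of 12 pericyte and mural genes (left) and of 15 myelin genes (right), 1 point per library, all axes logarithmic, with inputs as diamonds, set 1 pull-downs as circles and set 2 pull-downs as triangles. The set 2 libraries sit at the lower left of the left panel, and the inputs have the highest or near highest myelin sums with Cspg4 at 16.4 and 41.8 CPM.

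The third set of comparisons asked whether cocaine or withdrawal went with a change in the members. No member passed in any of these 7 contrasts, in edgeR, DESeq2 or limma voom, and edgeR called 0 of 15854 genes (0%) in each. The counts at an unadjusted p under 0.05 over all genes were 1068 for nonescalating against saline, 1283 for escalating against saline, 1388 for escalating against nonescalating, 553 for nonescalating withdrawal against saline withdrawal, 1052 for saline withdrawal against saline, 440 for nonescalating withdrawal against nonescalating, and 776 for the difference of the cocaine effect after and without withdrawal. DESeq2 called 34, 143, 225, 2, 30, 0 and 11 genes in that order, and limma voom 8 for escalating against nonescalating and 0 in the others. In edgeR 0 members had an unadjusted p under 0.05 in each of the 7 contrasts. DESeq2 had 1 in nonescalating withdrawal against nonescalating, and limma voom 1 there and 1 in nonescalating withdrawal against saline withdrawal. The 7 contrasts share libraries, so their values are not independent.

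Without withdrawal, Sox10 differed most in level between nonescalating and saline animals. It was at 0, 1.84 and 22.1 CPM after saline and at 5.08, 6.84, 19.7, 20.6 and 64.8 CPM after nonescalating cocaine, and the groups overlapped (log2 fold change 1.51, SE 1.31, adjusted p = 0.899). Pdgfra was at 19.6 ± 7.27 CPM (SD, n = 3) and 27.8 ± 20.1 CPM (SD, n = 5), Cspg4 at 123 ± 28.02 and 113 ± 33.95 CPM, and Gpr17 at 24.6 ± 22.6 and 25.2 ± 13.8 CPM. Olig1 was at 8.07 ± 13.98 and 8.93 ± 5.13 CPM, and Olig2 at 4.498 ± 6.76 and 2.54 ± 2.30 CPM.

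The 2 escalating libraries differed from each other as much as from the other groups. Cspg4 was at 212 and 44.6 CPM, Gpr17 at 55.5 and 27.1 CPM, Olig1 at 24.1 and 4.57 CPM, Pdgfra at 9.85 and 21.4 CPM, Sox10 at 8.93 and 0 CPM and Olig2 at 0 and 3.68 CPM. For Olig2 against saline the log2 fold change was -1.33 (SE 2.08, adjusted p = 0.922), and for Sox10 against nonescalating it was -2.38 (SE 1.62, adjusted p = 0.642). C1ql1 had no read in either library, and 3 reads would be 0.173 and 0.396 CPM before TMM scaling.

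After withdrawal, 6 of 7 members were above 0 in nonescalating against saline libraries and 0 of 7 passed. Their median log2 fold change was 0.97, against 0.05 over all genes, and it was 0.25 without saline withdrawal replicate 1 of set 1 and 0.34 without replicate 3, or 0.34 without nonescalating withdrawal replicate 2 of set 1. In set 2 alone 3 of 6 tested members were above 0 (median 0.16). Genes of some other cells lay on the same side, with 10 of 12 pericyte and 8 of 9 endothelial genes above 0. So did 8 of 10 astrocyte and 11 of 15 myelin genes, with 0 passing in each list. Others did not: 1 of 6 D2 neuron genes and 3 of 8 tested microglia genes were above 0. Of the 18 tested further precursor genes 10 were above 0 and 8 below (median 0.08), and 46.5% of all genes were below 0. The part of other cells in the members' values was not tested. Gpr17 had the smallest unadjusted p, at 1.52 on the log2 scale with SE 0.84 (unadjusted p = 0.0803, adjusted p = 1). It was at 17.1 ± 22.2 CPM (SD, n = 8) against 6.22 ± 6.999 CPM (SD, n = 6), and the groups overlapped in both sets. Sox10 was at 14.7 ± 15.7 and 7.25 ± 2.44 CPM (log2 fold change 0.97, SE 0.94), Olig2 at 7.53 ± 7.76 and 4.13 ± 6.10 CPM (1.07, SE 1.24), and Olig1 at 7.71 ± 7.71 and 5.89 ± 6.11 CPM (0.35, SE 1.17). Cspg4 (log2 fold change -0.09, SE 0.45) and Pdgfra (0.02, SE 0.67) lay close to 0. C1ql1 (0.99, SE 1.98) was at 24.8 CPM in nonescalating withdrawal replicate 2 of set 1 and at 0 to 4.53 CPM in the other 13 withdrawal libraries. That library also had the highest Gpr17 (66.8 CPM), Olig2 (24.7 CPM) and Sox10 (50.5 CPM) of all withdrawal libraries, with 10.5 M gene counts.

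Pdgfra differed in direction between the sets. In set 1 it was at 9.34, 14.6 and 14.7 CPM in nonescalating withdrawal libraries and at 6.72, 8.90 and 9.33 CPM in saline ones, so all 3 were above all 3, although the closest pair had 9.34 and 9.33 CPM. In set 2 it was at 0, 5.74, 7.01, 13.4 and 15.2 CPM and at 2.05, 3.42 and 29.0 CPM, and the groups overlapped with a ratio of means of 0.72. Whether the sets differ in this effect was not tested.

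Against animals without withdrawal, Pdgfra was at 9.996 ± 5.47 CPM (SD, n = 8) in nonescalating withdrawal libraries and at 27.8 ± 20.1 CPM (SD, n = 5) in nonescalating ones (log2 fold change -1.41, SE 0.80, unadjusted p = 0.0885, adjusted p = 1). Gpr17 was at 6.22 ± 6.999 CPM (SD, n = 6) after saline withdrawal and at 24.6 ± 22.6 CPM (SD, n = 3) after saline (-1.22, SE 1.10, adjusted p = 0.914). These withdrawal means mix both library sets, whereas the groups without withdrawal are all of set 1 and the fit holds a set term. By set, the withdrawal mean of Pdgfra was 12.9 CPM in set 1 and 8.26 CPM in set 2. That of Gpr17 was 9.82 and 2.62 CPM. The difference of the cocaine effect after and without withdrawal was 1.51 for Gpr17 (SE 1.32, adjusted p = 1).

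Most members, Cspg4 and Pdgfra aside, varied more between libraries than the median gene. The biological coefficient of variation fitted by edgeR over the 24 pull-downs was 0.58 for Cspg4 and 0.80 for Pdgfra, 0.95 for Gpr17 and 1.09 for Sox10, and 1.37, 1.39 and 1.77 for Olig1, Olig2 and C1ql1, with a median of 0.86 over all tested genes. The trend that edgeR fits over expression level was 0.51 for Cspg4, 0.898 for Pdgfra, 0.835 for Gpr17 and 0.949 for Sox10. It was 1.12, 1.33 and 1.75 for Olig1, Olig2 and C1ql1. Pdgfra lay below its trend, Cspg4 above it, and Olig2 and C1ql1 close to it. Only 11 of 24 pull-downs had at least 1 read of all 7 members, 6 had more than 3 reads of each, and the library with the fewest had reads of 3 members. Cspg4 was the 1 member with more than 3 reads in all 24.

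Olig1 and Olig2, which lie side by side on chromosome 16 and are both on in precursors and oligodendrocytes, were not found together in every library. Olig1 had no read in 5 of 24 pull-downs and Olig2 in 4; both were at 0 in 2, and exactly 1 of them was at 0 in 5. In 3 libraries 1 was at 0 while the other had more than 3 reads. Saline replicate 3 had 104 reads of Olig2 and 0 of Olig1, escalating replicate 1 had 365 reads of Olig1 and 0 of Olig2, and nonescalating replicate 3 had 32 of Olig1 and 0 of Olig2. These 3 libraries held 9.50, 17.5 and 3.41 M gene counts, and 3 reads in them are 0.318, 0.173 and 0.887 CPM before TMM scaling. In the inputs the reads were 202 of Olig1 with 126 of Olig2, and 3906 with 1626. Reads without molecular identifiers are not independent molecules, so such limits cover counting error only.

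**Figure D4:**
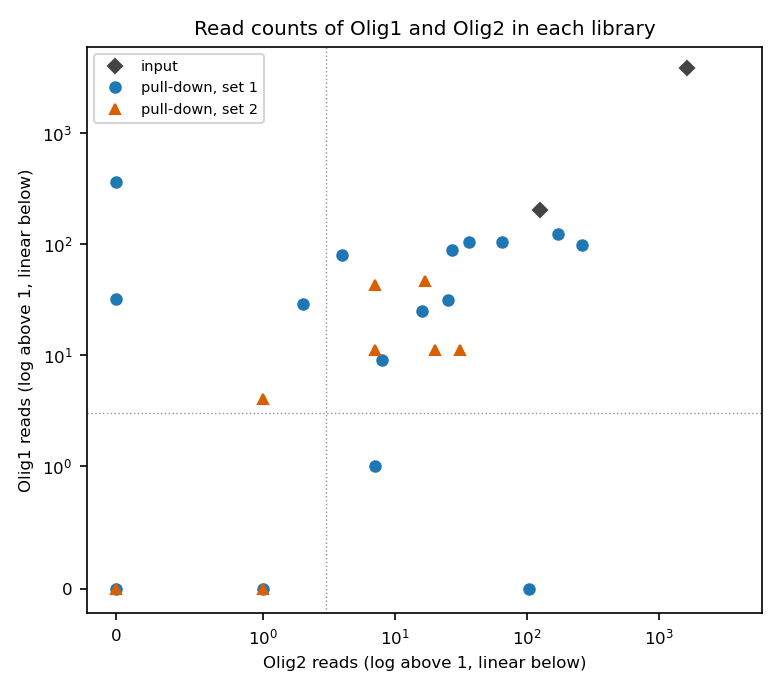
Reads of Olig1 (vertical axis) against reads of Olig2 (horizontal axis), 1 point per library, both axes logarithmic above 1 read and linear below, with dotted lines at 3 reads; some points at 0 or 1 read coincide. Escalating replicate 1 (365 and 0 reads) and saline replicate 3 (0 and 104 reads) lie on the axes, and the inputs at the upper right have both.

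Over the 24 pull-downs the genes whose log2 CPM followed the mean of the 7 members most closely were Rpl29 (Pearson's r = 0.785), Cbx7 (0.775), Plekhg5 (0.744), Tbc1d25 (0.740) and Fxyd5 (0.720), out of 8787 tested genes of at least 3 in mean log2 CPM. For single members the nearest genes were Tns2 for Cspg4 (r = 0.885), Nkd1 for Gpr17 (0.876), Prpf40b for Pdgfra (0.843), Ankrd6 for Olig2 (0.762), Rfx4 for Olig1 (0.752), 2310022B05Rik for Sox10 (0.727) and Sqle for C1ql1 (0.588). The 7 members had 7 different nearest genes. The points share library set and depth, so these values describe the libraries only.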

How the data were processed

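RNA of 24 pull-downs and 2 inputs was sequenced by the authors. The deposited files hold raw read counts per gene symbol, 1 library each; STAR 2.0.0e, HTSeq and mm10 are named in the submitters' processing notes. Neither the version of HTSeq nor its annotation or strand option is given in the sources used here, so overlapping and antisense genes cannot be told apart. Rows that name no gene were left out of library sizes (29.7% to 62.5% of the records of a pull-down were in no feature), and the 31735 genes shared by both versions of the gene list were used (99.0% to 99.3% of gene counts).

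Fits used R 4.3.3 with edgeR 4.0.16 (quasi-likelihood test, robust, TMM factors, a minimum count of 10 in filterByExpr, Benjamini-Hochberg adjustment over all genes tested, threshold 0.05). One fit held the 24 pull-downs, with terms for group and library set; another held 8 pull-downs and 2 inputs, with a term for agent. Standard errors were taken as |log2 fold change| over the root of the F statistic. Likeness used log2 CPM with a prior count of 2. Libraries of 1 group differed beyond sampling noise in all 57 pairs (lowest chi-square per degree of freedom 19.0). The fits were also run on simulated data with less spread between libraries than the real data. That run does not show their power for the members. Levels were computed per kb of exon sequence with lengths from GENCODE M21. Sequences are shown for 3 of 7 members, from the promoter table used, whose start sites are those of RefSeq.

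Alternatives were DESeq2 1.42.0, scaling by median of ratios, limma 3.58.1 (voom with quality weights), a CPM filter of 1 or no filter, other sets of libraries, no agent or library set term, the replicate number as a block, pseudocounts of 0.1 and 1 in the ratios, and each library left out in turn. Leaving out libraries 1806, 1813 and 1843 together, the replicate block in pull-down against input and the relations within library sets were chosen after seeing the data. The members, the marker lists and the rule for named genes (all 7 members; of each other list up to 3 genes highest in the inputs, plus lineage genes that pass; Drd2; the genes of closest likeness) were chosen with earlier results of these data known. Myh11, Kdr and those of the 5 endothelial genes lower in set 2 that the rule does not cover were named after their values were seen, as the genes of their lists that passed; Rgs5 and Vtn fall under the rule. 1 gene under the rule is not reported here.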

Additional observations from a re-analysis of the deposited data

Results flagged for a closer look

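In groups of 4 to 10 pull-downs a library was said to stand apart where its CPM lay farther from the nearest other value, as a share of the group's range, than Dixon's 95% critical value. Of 21 sets of 1 member in 1 group, 9 had such a library, in each case the highest. Chance gives about 5% for normally distributed values, which linear CPM near 0 are not, and the withdrawal groups hold both library sets, so the 9 are not weighed against that share.

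Nonescalating withdrawal replicate 2 of set 1 (n = 8) stood apart for 4 members. It had 66.8 CPM of Gpr17 (next highest 25.3), 24.7 CPM of Olig2 (next 9.45), 50.5 CPM of Sox10 (next 17.2) and 24.8 CPM of C1ql1 (next 4.53). Saline withdrawal (n = 6) had 3 such values: Pdgfra at 29.0 CPM in replicate 2 of set 2 (next 9.33), Olig2 at 16.3 CPM in replicate 2 of set 1 (next 3.82) and Gpr17 at 19.7 CPM in replicate 1 of set 1 (next 7.48). Among the nonescalating libraries (n = 5), Pdgfra was at 63.1 CPM in replicate 2 (next 22.8) and Sox10 at 64.8 CPM in replicate 1 (next 20.6). Cspg4 and Olig1 had no such library. Nothing in the labels sets these libraries apart.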

How the results depend on the processing

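Cspg4 passed between library sets under every alternative run (log2 fold change -3.00 to -2.49, largest adjusted p 0.0232, with the replicate block). For pull-down against input, DESeq2 passed 1 member (Cspg4) and limma voom 4 (Cspg4, Olig1, Olig2, Sox10); all other alternatives passed 0. All genes passing there were 758 with DESeq2, 1090 with limma voom, 132 with no filter, 70 with the CPM filter, 160 with 16 pull-downs of set 1 (121 higher), 11 with all 24 (5 higher), 65 with no agent term and 1 to 252 with 1 library left out (1 without either input, 252 without saline replicate 3, 148 without nonescalating replicate 3). Between sets they were 666 with DESeq2, 474 with limma voom, 351 with the withdrawal groups alone and 50 to 203 with 1 library left out (50 without nonescalating withdrawal set 1 replicate 1).

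Directions that turned belonged to values that did not pass. After withdrawal, Cspg4 was 0.15 with limma voom, 0.12 with the replicate block, 0.15 in library set 1 alone, 0.05 without libraries 1806, 1813 and 1843, and -0.36 to 0.20 with 1 library left out. Olig1 was -0.10 with the replicate block, -0.28 in set 2 alone and -0.47 to 0.99 with 1 left out, and Pdgfra -0.42 in set 2 alone and -0.17 to 1.06 with 1 left out. Between sets, C1ql1 was 0.16 with limma voom, 1.08 with the replicate block and -2.18 to 0.50 with 1 left out. Without the 3 named libraries Olig1 was 0.04 and Pdgfra 0.06; with 1 left out Olig1 ran from -1.04 to 0.29, Pdgfra from -0.98 to 0.03 and Sox10 from -0.65 to 0.53. Gpr17 was -0.69 to 0.18 with 1 left out against input, and -0.07 with limma voom in the difference of cocaine effects. Olig2 was -7.58 to 1.61 in escalating against saline (1.61 without saline replicate 3), and the ratio of Olig1 to Olig2 differed by -0.97 to 0.99. The causes were not tested. Of 25 pairs of libraries with the same number in different groups of 1 set, 9 had a correlation of deviations over 0.1 (range -0.156 to 0.277). The 90 pairs with different numbers ranged from -0.354 to 0.239. These ranges overlap and do not settle whether the numbers pair samples. Of 6 pairs with the same group and number in both sets, 0 had a correlation over 0.1. That count does not settle whether they share a sample. The main fits took the libraries as unpaired. Pull-down against input with the replicate block, added after seeing the data, rests on the 2 pull-downs and 2 inputs numbered 1: 0 members passed, 321 genes passed (294 higher), Gpr17 was 0.24 and Sox10 0.66. Depth limits C1ql1 most, with 3 reads or fewer in many libraries.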
